A study of Mus musculus with 18 samples.

Results

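The genes described here are 10 markers of the endothelium, the cell layer that lines blood vessels, read in whole testis. They are Pecam1, Cdh5, Kdr, Flt1, Tek, Tie1, Vwf, Eng, Esam and Emcn, and each was taken by its symbol from a table of 20985 genes. The 18 RNA-seq libraries fall into 6 groups of 3, and the mice were of the outbred ICR strain and 10 weeks old. The control group is labelled with that word alone. The AOS group was given alginate oligosaccharide (AOS), at 10 mg/kg, which consists of short sugar chains cut from a seaweed polysaccharide. Animals of the STZ group received streptozotocin, a compound that damages pancreatic beta cells and is used to make rodents diabetic. The remaining 3 groups had STZ with a second agent: AOS at 10 mg/kg (STZ+AOS), a faecal microbiota transplant whose label names AOS at 10 mg/kg (STZ+AOS-FMT), or a transplant whose label names control (STZ+control-FMT). The labels give no donor details, no dose of STZ and no measure of blood sugar. They do not say whether replicates are separate animals, so each p-value here reflects the spread between libraries alone, and that spread may be technical.

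Endothelial cells respond to vascular endothelial growth factor (VEGF), which acts through the receptor kinases encoded by Kdr and Flt1. Angiopoietins act on the receptor encoded by Tek, and junction proteins such as those of Cdh5, Pecam1 and Esam hold neighbouring cells together. In the testis the vessels run between the seminiferous tubules, beside the Leydig cells, and do not enter the tubules, where germ cells and Sertoli cells lie. Bulk tissue cannot tell a larger number of endothelial cells, or a larger share of them, from more RNA per cell.

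All 10 genes were detected in every library, at low levels. Values are FPKM, fragments scaled by transcript length and library size, so levels can be compared between genes. The group means of the control libraries ran from 0.477 ± 0.136 FPKM for Tie1 to 3.23 ± 0.377 FPKM for Eng (SD, n = 3). In the control libraries 29.6% of all genes had a lower mean than Tie1 and 52.2% had a lower mean than Eng, and the other 8 genes lay between these. Tie1 never reached 1 FPKM in any of the 18 libraries and missed the filter used for testing, which asked for 1 FPKM or more in 3 libraries or more and left 14164 genes. The other 9 genes passed it, and each of the 9 would have passed without the STZ libraries. The summed value of the 10 genes was 12.8, 15.0 and 15.8 FPKM in the control libraries and 20.4, 30.5 and 28.3 FPKM in the STZ libraries, while the 12 libraries of the other 4 groups lay between 12.4 and 16.3 FPKM.

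The genes lie on 8 chromosomes of the mouse genome (GRCm38, GENCODE M21), and all are protein-coding. Kdr (chr5:75932827-75978458) and Flt1 (chr5:147561604-147726011) share chromosome 5, and Tek (chr4:94739289-94874976) and Tie1 (chr4:118471191-118490061) share chromosome 4. The others are Eng (chr2:32646595-32682669), Emcn (chr3:137341067-137432185), Vwf (chr6:125546774-125686679), Cdh5 (chr8:104101625-104144511), Esam (chr9:37528078-37538319) and Pecam1 (chr11:106654217-106750628).

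Upstream sequence was at hand for 6 of the 10 genes: Kdr, Flt1, Tek, Tie1, Eng and Emcn (RefSeq, GRCm38.p6). The windows of 250 bases before the transcription start are shown for 3 of them. Kdr and Flt1 encode receptors for the same ligand and only Kdr was called higher in the STZ group, and Eng had the highest level. They are written 5′ to 3′ on the strand of the gene, and capitals mark AGGAAG, a short form of the site bound by ETS factors, on either strand. The windows are chr2:32646345-32646594 (plus strand) for Eng, chr5:75978456-75978705 (minus strand) for Kdr and chr5:147726012-147726261 (minus strand) for Flt1.
Eng: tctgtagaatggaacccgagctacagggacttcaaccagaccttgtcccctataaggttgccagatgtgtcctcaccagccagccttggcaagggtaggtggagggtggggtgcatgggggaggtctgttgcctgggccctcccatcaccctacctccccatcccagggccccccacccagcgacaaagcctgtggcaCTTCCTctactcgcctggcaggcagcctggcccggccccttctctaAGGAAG
Kdr: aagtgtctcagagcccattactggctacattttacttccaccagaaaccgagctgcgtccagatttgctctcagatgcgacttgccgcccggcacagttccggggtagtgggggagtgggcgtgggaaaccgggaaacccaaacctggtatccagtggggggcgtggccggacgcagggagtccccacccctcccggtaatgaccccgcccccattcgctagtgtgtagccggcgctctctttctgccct
Flt1: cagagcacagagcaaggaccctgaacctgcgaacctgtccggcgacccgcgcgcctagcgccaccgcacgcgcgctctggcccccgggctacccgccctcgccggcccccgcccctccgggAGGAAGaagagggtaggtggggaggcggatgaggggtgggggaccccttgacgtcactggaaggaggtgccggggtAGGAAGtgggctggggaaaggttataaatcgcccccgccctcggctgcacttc
The letters AGGAAG occurred in 4 of the 6 windows (Eng, Emcn, Tie1 and Flt1) and in 29.5% of 32851 windows of the same length. In Eng the matches began 52 and 6 bases before the start, and in Flt1 they began 129 and 53 bases before it. TATAAA occurred in the Flt1 window, 31 bases before the start, and in 12.4% of all windows. GGGCGG, a GC box, was found in the windows of Kdr and Flt1 and in 32.7% of all windows, and ACAAAG, a short SOX site, in those of Eng and Tek and in 16.5% of all. AGATAA, a short GATA site, was in 0 of the 6 windows and in 9.99% of all. Both strands were searched, the motifs do not contain one another, and a match describes letters only.

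In the STZ group 7 of the 9 tested endothelial genes were higher than in control, and none was lower (limma, Benjamini-Hochberg adjusted p under 0.05). These were Pecam1, Cdh5, Kdr, Vwf, Eng, Esam and Emcn. Ratios of group means ran from 1.34 for Vwf to 2.43 for Pecam1 among the 7, and were 1.28 for Flt1 and 1.31 for Tek. The whole transcriptome moved in the same comparison: 43.2% of all tested genes were called higher, and the median log2 fold change over all tested genes was 0.17. The 9 genes had a median of 0.65. This broad shift depends on how the libraries are scaled. On the values as deposited 78.2% of the called genes were higher, against 43.5% after quantile normalization and 30.4% after centring each library on its median, where the all-gene median became −0.06 and −0.17. The count of endothelial genes called higher became 1 (Pecam1) and 4 (Pecam1, Kdr, Eng and Esam) under these scalings, and in both of them Flt1, Tek and Vwf turned to values below 0. The share of all tested genes called higher under each scaling was not counted, so these counts have no background to be read against.

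**Figure D1:**
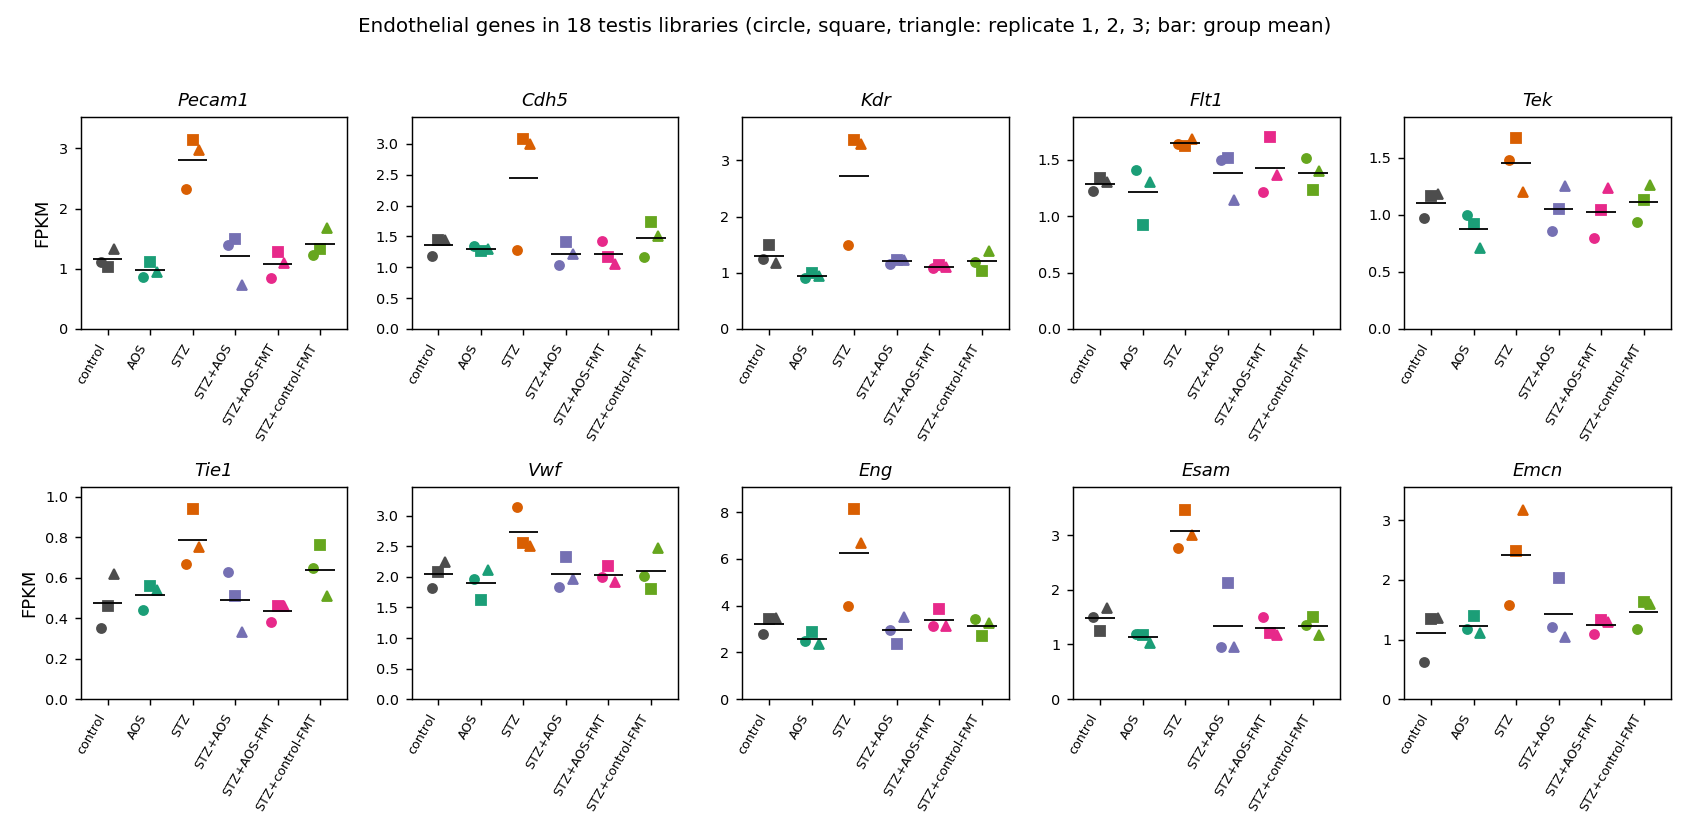
FPKM (vertical axes, from 0) of the 10 endothelial genes in 18 testis libraries, by group (horizontal axes), with 1 point per library and a bar at each group mean. The STZ points stand above all 15 other libraries for Pecam1, Vwf, Eng and Esam, while for Cdh5 and Kdr replicate 1 of the STZ group (circle) lies within or at the edge of the other groups.

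Pecam1 had the largest increase of the 9 tested genes, and the other junction genes follow it here. Pecam1 encodes a platelet and endothelial adhesion molecule found where endothelial cells meet. Its values were 1.11, 1.03 and 1.33 FPKM in control and 2.32, 3.14 and 2.98 FPKM in STZ libraries. They were 0.87, 1.11 and 0.94 FPKM with AOS, 1.39, 1.50 and 0.73 FPKM with STZ+AOS, 0.85, 1.28 and 1.10 FPKM with STZ+AOS-FMT, and 1.22, 1.32 and 1.68 FPKM with STZ+control-FMT. The 3 STZ libraries were the 3 highest of the 18. Among the other groups the AOS values all lay below those of STZ+control-FMT, a separation whose share over all tested genes was not counted. Each of the other groups overlapped with control. Pecam1 rose by 0.82 ± 0.14 on the log2(FPKM + 1) scale (SE; adjusted p = 0.000144), which is 0.65 above the median of all genes. Of the 9 genes tested, only Pecam1 was called under every alternative setting run for STZ against control.

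Esam encodes an adhesion molecule of endothelial tight junctions. Its values were 1.51, 1.25 and 1.67 FPKM in control, 2.76, 3.47 and 3.01 FPKM in STZ and 1.20, 1.17 and 1.03 FPKM in AOS libraries. The values were 0.95, 2.12 and 0.95 FPKM with STZ+AOS, 1.50, 1.21 and 1.17 FPKM with STZ+AOS-FMT and 1.35, 1.50 and 1.18 FPKM with STZ+control-FMT. Again the STZ libraries were the 3 highest, and replicate 2 of STZ+AOS came next. The increase in Esam was 0.72 ± 0.15 (SE; adjusted p = 0.000775).

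Cdh5 encodes VE-cadherin, the main adherens junction cadherin of endothelium. Its values were 1.18, 1.45 and 1.44 FPKM in control and 1.28, 3.08 and 2.99 FPKM in STZ libraries. Replicate 1 of the STZ group thus lay inside the control range, and the groups overlapped. With AOS the values were 1.34, 1.26 and 1.30 FPKM, and the 9 libraries with STZ and a second agent lay between 1.03 and 1.73 FPKM. The increase was 0.50 ± 0.17 (SE; adjusted p = 0.0203). The call was lost without STZ replicate 2 (adjusted p = 0.111) or without STZ replicate 3 (adjusted p = 0.110), and without STZ replicate 1 the increase was 0.78. With only the STZ and control libraries fitted, Cdh5 was not called. Emcn encodes endomucin, a sialomucin of capillary and venous endothelium. Its control values were 0.63, 1.35 and 1.36 FPKM and its STZ values 1.58, 2.49 and 3.17 FPKM, without overlap. The control value of 0.63 FPKM was the lowest of all libraries. STZ replicate 1 exceeded only 12 of the 15 libraries outside the STZ group, of which the highest had 2.04 FPKM. Emcn rose by 0.68 ± 0.18 (SE; adjusted p = 0.00522), but was not called after quantile normalization or median centring.

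Of the 2 VEGF receptor genes only Kdr was called higher in the STZ group, and their changes were not tested against each other. Kdr encodes VEGFR2, the main signalling receptor for VEGF-A. Kdr had 1.25, 1.50 and 1.17 FPKM in control, 1.50, 3.37 and 3.29 FPKM in STZ and 0.91, 0.99 and 0.94 FPKM in AOS libraries. The 9 libraries with STZ and a second agent lay between 1.04 and 1.39 FPKM. Replicates 2 and 3 of the STZ group stood above every other library, and replicate 1 equalled the highest control. The increase in Kdr was 0.65 ± 0.15 (SE; adjusted p = 0.00248), and 0.91 without STZ replicate 1, the lowest STZ value. Leaving out replicate 2 or 3 instead lowers the estimate, and Kdr was called in both fits. With only the STZ and control libraries fitted, Kdr was not called. Flt1 encodes VEGFR1, which binds VEGF tightly and signals weakly. Flt1 had 1.22, 1.34 and 1.30 FPKM in control and 1.64, 1.62 and 1.68 FPKM in STZ libraries. The STZ values lay close together and above control, but the STZ+AOS-FMT group held a library at 1.70 FPKM, the highest of the 18. The Flt1 difference was 0.21 with a 95% interval from −0.01 to 0.43 and did not pass the test (adjusted p = 0.0911), and it turned to −0.10 after quantile normalization and −0.13 after median centring. The ratio of Kdr to Flt1 was 0.915, 2.08 and 1.96 in the STZ libraries and between 0.900 and 1.12 in control, so replicates 2 and 3 differed from control in this ratio and replicate 1 did not.

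Of the angiopoietin receptor genes, Tek encodes TIE2 and Tie1 encodes its partner receptor. Tek had 0.97, 1.16 and 1.18 FPKM in control and 1.48, 1.67 and 1.20 FPKM in STZ libraries. These did not overlap, but replicate 3 exceeded the highest control value narrowly. The difference was 0.22 with an interval from −0.02 to 0.45 (adjusted p = 0.106), did not pass the test, and turned to −0.07 and −0.13 under quantile and median scaling. Tie1 had 0.35, 0.46 and 0.62 FPKM in control and 0.67, 0.94 and 0.75 FPKM in STZ libraries. In a fit without the filter, over 20590 genes, Tie1 rose by 0.28 ± 0.09 (SE; limma adjusted p = 0.018), but had 0.06 after quantile normalization and −0.14 after median centring, neither past the threshold.

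Eng encodes endoglin, a co-receptor for BMP9 and TGF-beta family ligands, and had the highest level of the 10 genes in every group. It measured 2.80, 3.41 and 3.49 FPKM in control, 3.99, 8.12 and 6.68 FPKM in STZ and 2.48, 2.86 and 2.37 FPKM in AOS libraries. The 9 libraries with STZ and a second agent lay between 2.36 and 3.87 FPKM, so all 3 STZ libraries were above them, replicate 1 only just. The increase in Eng was 0.74 ± 0.17 (SE; adjusted p = 0.00208), and 0.99 without STZ replicate 1, the lowest STZ value. Leaving out replicate 2 or 3 instead lowers the estimate, and Eng was called in both fits. Vwf encodes von Willebrand factor, a clotting protein stored in endothelial granules and also made by megakaryocytes. Vwf had 1.82, 2.08 and 2.24 FPKM in control and 3.14, 2.55 and 2.51 FPKM in STZ libraries. Here replicate 1 of the STZ group was the highest of the 18 libraries. The Vwf increase was 0.29 ± 0.10 (SE; adjusted p = 0.0264) on unscaled values, and turned to −0.10 after quantile normalization and −0.05 after median centring. The call was also lost without control replicate 1, control replicate 2 or STZ replicate 1, and with only the STZ and control libraries fitted.

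**Figure D2:**
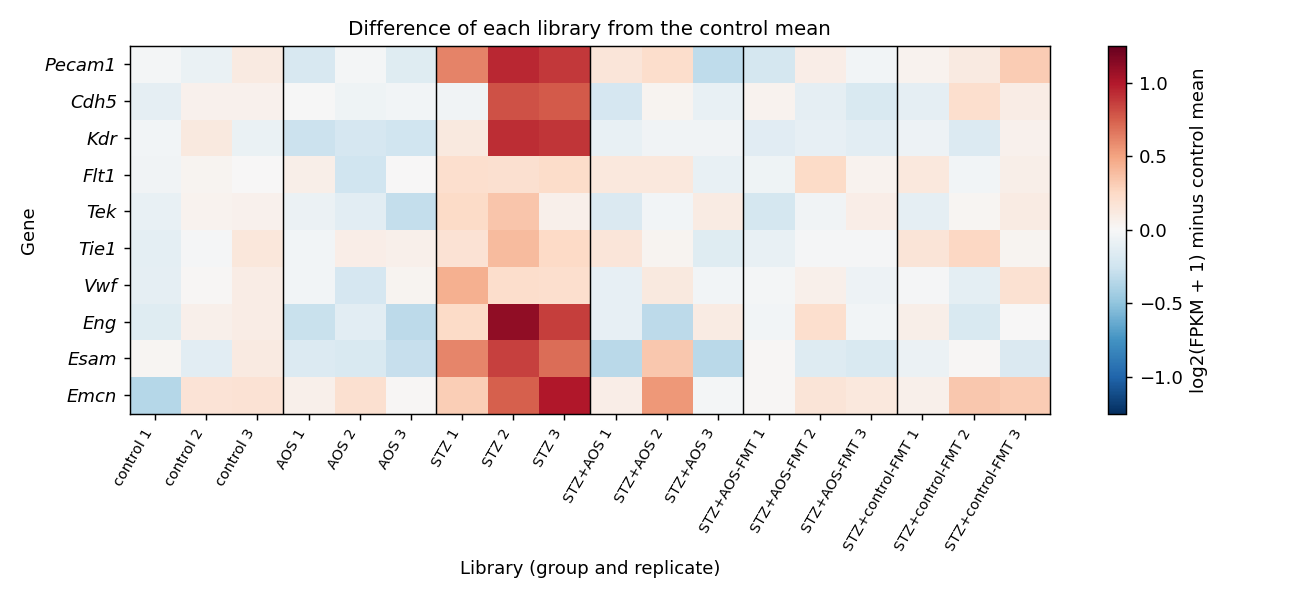
Difference of each of the 18 libraries (columns) from the control mean of the same gene (rows), in log2(FPKM + 1), with red above and blue below the control mean. The 3 STZ columns hold the strongest red, and STZ replicate 1 is pale for Cdh5 (1.28 FPKM) and Kdr (1.50 FPKM) but red for Pecam1 (2.32 FPKM) and Esam (2.76 FPKM).

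Replicate 1 of the STZ group stood apart from replicates 2 and 3. It exceeded all 15 libraries outside the STZ group for 5 of the 10 genes (Pecam1, Tek, Vwf, Eng and Esam). Replicate 2 did so for 9 genes, all but Flt1, and replicate 3 for 7, all but Flt1, Tek and Tie1. Relative to the control mean, replicate 1 was at 0.944 for Cdh5, 1.15 for Kdr and 1.23 for Eng, but at 1.53 for Vwf, 1.87 for Esam and 2.01 for Pecam1. The ratio of Vwf to Cdh5 was 2.45 in replicate 1, 0.828 in replicate 2 and 0.840 in replicate 3, and between 1.43 and 1.56 in the control libraries. Without replicate 1, 6 genes were called higher: the same genes except Vwf.

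In 7 of the 9 genes (Pecam1, Flt1, Tek, Vwf, Eng, Esam and Emcn) the 3 STZ values lay above all 3 control values, against 42.1% of all tested genes. An F test for any difference among the 6 groups called 6 of the 9 genes (Pecam1, Cdh5, Kdr, Eng, Esam and Emcn) and 52.3% of all tested genes. Both shares are high for the whole transcriptome, so the counts of endothelial genes are to be read against them.

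Markers of other cell types moved with the same libraries. The summed FPKM of 10 Sertoli markers was 1549, 1986 and 1901 in the STZ libraries against 612 to 677 in control. For 10 macrophage markers it was 170.3, 342 and 295 against 68.5 to 69.4. For 11 genes listed for pericytes, not all particular to them, it was 21.5, 28.1 and 29.1 against 9.36 to 11.8. The 6 elongating spermatid markers summed to 42519, 22803 and 30619 against 46632 to 52793 FPKM. For 8 Leydig markers the STZ libraries split, at 1793, 11952 and 12749 against 3510 to 4027 FPKM in control: replicate 1 was the lowest and replicates 2 and 3 the highest of the 18. The 7 adipose markers summed to 19.5, 26.4 and 180.9 against 17.1 to 34.7 FPKM, and to 66.2 to 92.6 FPKM in STZ+control-FMT, and the erythrocyte sum was 61.7, 396.5 and 186.2 against 99.8 to 140.9 FPKM. The part of these cell types in the endothelial values was not tested. The 8 platelet markers summed to 5.91, 12.2 and 13.2 against 6.16 to 7.74 FPKM. Of the 2 that were tested, Gp1bb rose by 0.60 ± 0.18 (SE; limma adjusted p = 0.0101) and passed under neither scaling, and Ppbp, not tested, was listed at 0 in all STZ and all STZ+AOS libraries. The part of platelets in the Pecam1 and Vwf values was not tested.

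The pathway genes around these receptors were read from lists written with earlier results known, and counts below are on the values as deposited unless a scaling is named. Counts of genes that rose are to be read against the 43.2% of all tested genes called higher. That share holds for the values as deposited, and none was counted for the scaled values, so scaled counts below have no background. Among ligands, 2 of 6 tested genes rose and 1 fell in the STZ group (median 0.36), but after quantile normalization and after median centring none rose and the same 1 fell (medians −0.02 and 0.01). The VEGF family genes Vegfb and Pgf rose by 0.40 ± 0.13 and 0.62 ± 0.17 (SE), which became 0.01 and 0.24 after quantile normalization, and Apln, which encodes the ligand apelin, fell by 1.00 ± 0.36 (adjusted p = 0.0275) and by 1.34 after quantile normalization. Lower Apln values were not confined to the STZ group. Apln had −0.70 with AOS against control (limma adjusted p = 0.592) and −0.65 with STZ+AOS against STZ (limma adjusted p = 0.137), neither past the threshold. Vegfa, the ligand of both VEGF receptors, had 1.85, 1.90 and 1.92 FPKM in control and 1.31, 3.22 and 3.78 FPKM in STZ libraries. The Vegfa difference of 0.32 did not pass the test (adjusted p = 0.195) and turned to −0.07 and −0.03 under quantile and median scaling, and STZ replicate 1 was below control while replicates 2 and 3 were above, the same split as in the Leydig markers. Angpt2, an angiopoietin that modulates TIE2, also did not pass (0.20; adjusted p = 0.186), and Angpt1, the activating ligand, was at most 0.24 FPKM in all libraries and was not tested.

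All 9 tested co-receptors and signalling partners rose, with a median of 0.70, and 5 of them were also called higher under each scaling, where the medians were 0.34 (quantile) and 0.35 (median) and Flt4 (quantile) or Nrp2 (median) turned negative. Robo4, an endothelial guidance receptor, had 0.79, 0.60 and 0.63 FPKM in control and 4.32, 8.21 and 7.02 FPKM in STZ libraries. It rose by 2.13 ± 0.16 (SE; adjusted p = 9.45e-08), more than any of the 10 markers, and by 1.76 and 1.79 under quantile and median scaling. The VEGF co-receptor Nrp1 rose by 0.95 ± 0.17. Acvrl1 and Bmpr2, the receptors that pair with endoglin, rose by 0.70 ± 0.11 and 0.80 ± 0.10, beside 0.74 for Eng. Nrp1, Acvrl1 and Bmpr2 were called higher under both scalings too, at 0.57, 0.34 and 0.40 after quantile normalization, where Eng had 0.34 and did not pass.

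Among Notch, ephrin and arterial-venous genes 7 of 10 rose (median 0.43), against 4 higher and 4 lower after quantile normalization and 3 higher and 3 lower after median centring, where Jag2 and Efnb2 turned negative in both. Ephb4, a receptor of venous endothelium, rose by 1.17 ± 0.14, and Nr2f2, a venous transcription factor also made by stromal cells, by 0.77 ± 0.17, and both were called higher under each scaling. Gja4, a gap junction gene of arterial endothelium, rose by 0.59 ± 0.13, but had 0.25 and did not pass under either scaling. Notch1 and Hey2 were 2 of the 7, but passed the filter only through the STZ libraries. Of the endothelial transcription factor genes 5 of 11 were higher, near the share over all genes, and 1 was lower. Their median was 0.21 beside the 0.17 of all genes, and this direction turned under both scalings: 0 were higher and 3 (quantile) or 5 (median) lower, with medians of −0.13. Erg, an ETS factor, had 0.41, 0.40 and 0.67 FPKM in control and 1.23, 1.28 and 1.16 FPKM in STZ libraries, and it too passed only through these. Mef2c and Bcl6b rose by 0.49 ± 0.13 and 0.42 ± 0.10, and Gata2, which blood cells also use, fell by 0.29 ± 0.09. Under both scalings Erg, Mef2c and Bcl6b did not pass, and Gata2 still fell, by 0.64 and 0.63.

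Of 14 other tested endothelial surface and junction genes 12 rose, with a median of 0.54, and 2 of the 12 (Procr and Adgrf5) passed the filter only through the STZ libraries. After quantile normalization 5 were higher and 0 lower, and after median centring 5 were higher and 1 lower, with Cldn5 turning negative in both and Adgrf5 after median centring. Ly6c1 rose by 1.67 ± 0.37, Ecscr by 0.90 ± 0.18, Cd34 by 0.85 ± 0.22, Plvap by 0.83 ± 0.18, Podxl by 0.73 ± 0.14 and Egfl7 by 0.56 ± 0.13 (SE), and all of these but Egfl7 were called higher under both scalings. Some are shared with other cells, since Cd34 marks stromal and blood precursors and Ly6c1 some leukocytes. Icam1, which binds leukocytes on activated endothelium, had 0.94, 1.04 and 1.02 FPKM in control and 2.24, 6.93 and 4.78 FPKM in STZ libraries, and rose by 1.40 ± 0.21, and by 1.02 and 1.06 under quantile and median scaling. Vcam1, a second leukocyte adhesion gene, had 9.87, 35.5 and 37.6 FPKM in the STZ libraries around control values of 19.6, 20.1 and 25.2 FPKM. Its difference of 0.14 did not pass (adjusted p = 0.750). Markers of pericytes, the cells that wrap capillaries, rose in 6 of 6 tested genes with a median of 0.89, and in 6 of 6 under both scalings; Pdgfrb and Anpep passed the filter only through the STZ libraries. Of 5 lymphatic markers 4 rose, against 2 higher and 1 lower under each scaling, where Reln turned negative, and Lyve1 and Pdpn of the 4 passed the filter only through the STZ libraries, while Prox1, the transcription factor that defines lymphatic endothelium, had −0.02 (adjusted p = 0.882).

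**Figure D3:**
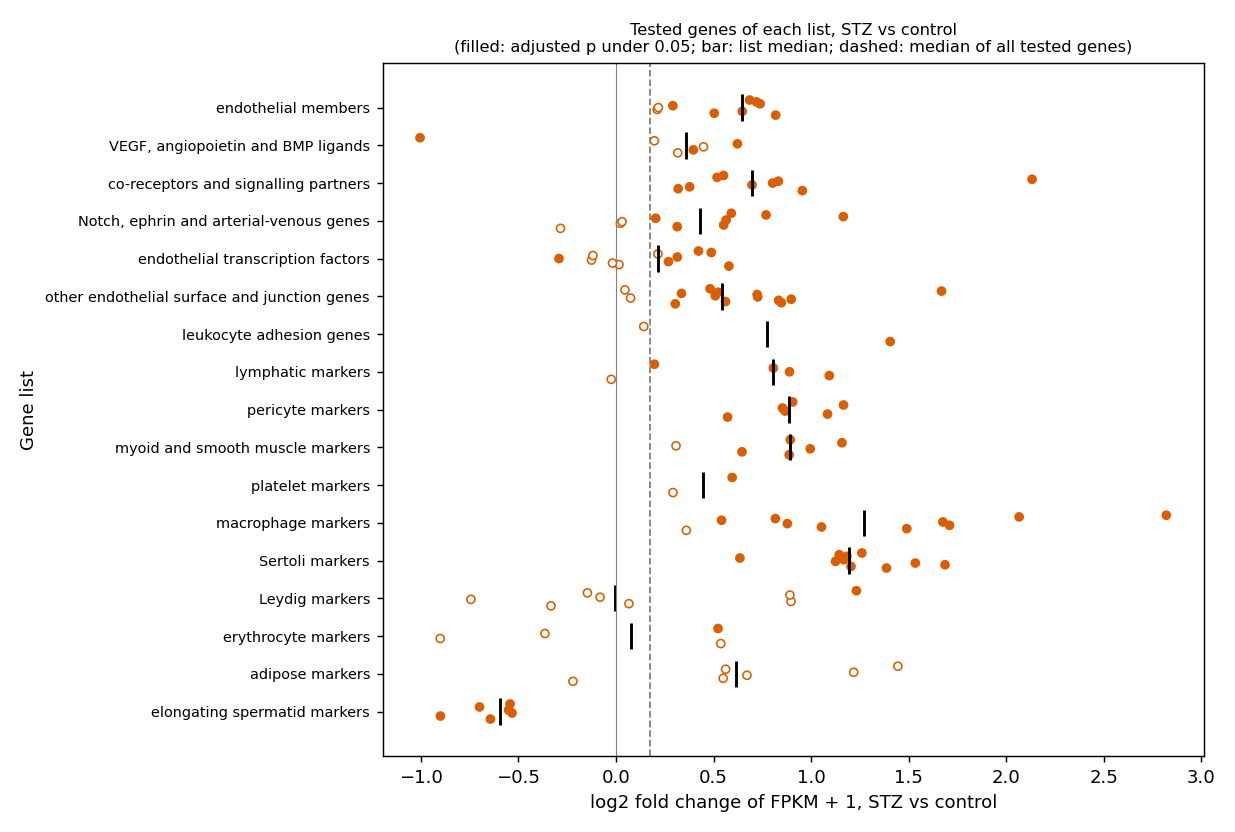
Log2 fold change of FPKM + 1 between STZ and control (horizontal axis) for the tested genes of each list (vertical axis), filled where called, with a bar at each list median and a dashed line at the median of all tested genes. The endothelial bar stands at 0.65 and the dashed line at 0.17, while Sertoli (1.19), macrophage (1.27) and pericyte (0.89) bars stand further right and the elongating spermatid bar is at −0.60.

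Against the STZ group, the 3 groups given STZ with a second agent had lower endothelial values. The 3 comparisons share the same STZ libraries, and STZ against control shares them too, so they are not independent of one another. With STZ+AOS 7 of 9 genes fell, against 43.1% of all tested genes, and the median of the 9 was −0.59 against −0.17 for all genes. With STZ+AOS-FMT 8 of 9 fell, against 44.5%, with medians of −0.59 and −0.18. With STZ+control-FMT 6 of 9 fell, against 39.9%, with medians of −0.45 and −0.15. All 3 treated values lay below all 3 STZ values in 6 of the 9 genes in each comparison, against 41.1%, 42.7% and 38.2% of all tested genes in the same order. After quantile normalization or median centring the count of genes that fell became 4 for STZ+AOS (Pecam1, Kdr, Eng and Esam), 3 for STZ+AOS-FMT (Pecam1, Kdr and Esam) and 4 for STZ+control-FMT (Pecam1, Kdr, Eng and Esam). The share of all tested genes that fell under each scaling was not counted, so scaled counts here and for the lists below have no background.

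Pecam1 fell by 0.80 ± 0.14 with STZ+AOS, by 0.88 ± 0.14 with STZ+AOS-FMT and by 0.66 ± 0.14 with STZ+control-FMT (SE; adjusted p = 0.000178, 7.18e-05 and 0.000983). Esam fell by 0.84, 0.83 and 0.80 (SE 0.15 each), Eng by 0.85, 0.69 and 0.77 (SE 0.17 each) and Kdr by 0.71, 0.77 and 0.71 (SE 0.15 each), in the same order. These 4 genes passed in all 3 comparisons, and each had STZ libraries wholly above the treated ones. Cdh5 fell by 0.59, 0.59 and 0.44, with adjusted p of 0.00805, 0.00803 and 0.041, while STZ replicate 1 lay within the treated range. Those Cdh5 calls were lost without STZ replicate 2 or without STZ replicate 3. Emcn fell by 0.48 with STZ+AOS and by 0.58 with STZ+AOS-FMT, and had −0.45 with STZ+control-FMT, which did not pass (adjusted p = 0.0513).

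Vwf fell by 0.29, 0.30 and 0.27 on unscaled values (adjusted p = 0.0254, 0.0238 and 0.0391), and turned to between 0.04 and 0.12 under quantile and median scaling. Tek had −0.25, −0.28 and −0.21, of which only STZ+AOS-FMT passed (adjusted p = 0.0427), and it turned to between 0.01 and 0.10 under these scalings. Flt1 had −0.16, −0.13 and −0.15, passed in none of the 3, and turned to between 0.11 and 0.23. Tie1, in the fit without the filter, fell by 0.26 with STZ+AOS and by 0.32 with STZ+AOS-FMT (adjusted p = 0.0225 and 0.00815) and had −0.12 with STZ+control-FMT (adjusted p = 0.284), but had −0.03, −0.09 and 0.05 after quantile normalization and 0.16, 0.12 and 0.23 after median centring, where the last passed (adjusted p = 0.0226). Of the 9 co-receptor genes 8, 7 and 8 fell, and 7, 6 and 5 did so under each scaling. Robo4 fell by 1.72, 2.04 and 1.99, and by 1.31, 1.65 and 1.68 after quantile normalization. Of the 14 other endothelial surface and junction genes 11, 11 and 10 fell, against 5, 5 and 3 after quantile normalization and 7, 5 and 3 after median centring, with 1 to 2 higher. In the same comparisons 10, 9 and 9 of 10 macrophage markers and 10, 10 and 10 of 10 Sertoli markers fell (7 or 8 and 9 under the scalings). Cd163, 1 of the macrophage markers, passed the filter only through the STZ libraries. All 6 elongating spermatid markers rose in each of the 3, as under median centring, against 4 in each after quantile normalization, where Tnp2 turned to 0 in both transplant groups. Of 8 Leydig markers 5, 1 and 1 fell (6, 2 and 2 after quantile normalization). Of 4 tested erythrocyte markers 2 rose and 1 fell with STZ+control-FMT. The 2 that rose were the haemoglobin genes Hbb-bs and Hbb-bt, by 3.89 and 2.35 (limma adjusted p = 0.00732 and 0.00286). The part of these cells in the endothelial values was not tested.

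**Figure D4:**
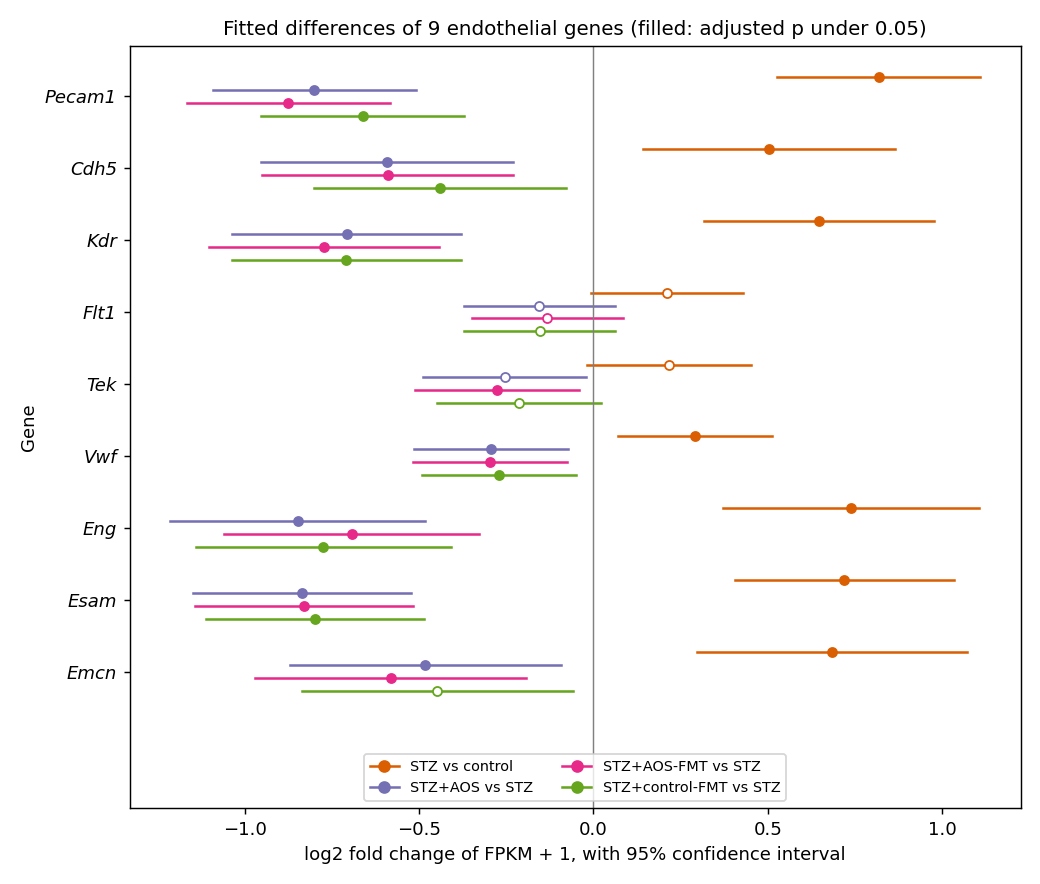
Log2 fold change of FPKM + 1 (horizontal axis) with its 95% confidence interval for the 9 tested endothelial genes (vertical axis) in 4 comparisons by colour, filled where the adjusted p is under 0.05. Intervals for Pecam1, Cdh5, Kdr, Vwf, Eng, Esam and Emcn stay clear of 0 in all 4, though Emcn is unfilled in STZ+control-FMT against STZ. Those for Flt1 cross 0 in all 4, and those for Tek cross it in STZ against control and in STZ+control-FMT against STZ.

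The 3 groups with STZ and a second agent were also set against control. None of the 9 genes passed in STZ+AOS, STZ+AOS-FMT or STZ+control-FMT against control, by limma, where 0.0424%, 0% and 0% of all tested genes passed. None of the 9 had an unadjusted p under 0.05 either, in any of the 3. The medians of the 9 genes were −0.04, −0.06 and 0.02. A missed threshold does not show equal levels. For Pecam1 the 95% intervals ran from −0.27 to 0.31, from −0.35 to 0.23 and from −0.13 to 0.45, and all 3 lie below its STZ increase of 0.82. For Emcn, the least precise, they ran from −0.19 to 0.59, from −0.29 to 0.49 and from −0.15 to 0.63. These upper bounds lie below the increase of 0.68 seen with STZ alone, but the interval of that increase, from 0.30 to 1.07, overlaps all 3. For Flt1 the upper bounds of 0.27, 0.30 and 0.27 lie above its STZ difference of 0.21. For Tek the STZ+control-FMT bound of 0.24 lies above its STZ difference of 0.22.

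None of the 9 genes passed between any of these 3 groups. Between STZ+AOS-FMT and STZ+control-FMT the share of all genes called was 0%, between STZ+AOS and STZ+AOS-FMT 0%, and between STZ+AOS and STZ+control-FMT 0.00706%. No endothelial gene of the 9 had an unadjusted p under 0.05 in these 3 comparisons. Between the transplant groups the largest difference was in Pecam1, at −0.21 (95% interval from −0.50 to 0.08). Tie1, outside the filter, had 0.38, 0.46 and 0.46 FPKM with STZ+AOS-FMT and 0.65, 0.76 and 0.51 FPKM with STZ+control-FMT. These libraries did not overlap, and the difference of −0.19 did not pass (limma adjusted p = 0.749). The share of all genes without overlap between the transplant groups was not counted.

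With AOS without STZ, none of the 9 endothelial genes passed against control, 0% of all tested genes passed, and none of the 9 had an unadjusted p under 0.05, while 1273 of the 14164 genes did. The differences were negative in 8 of 9 genes, with a median of −0.13, and in 8494 of all 14164 genes, with a median of −0.03. In Kdr the AOS values of 0.91, 0.99 and 0.94 FPKM all lay below the control values. Its difference was −0.24 with an interval from −0.57 to 0.09 (adjusted p = 0.660). Esam values of 1.20, 1.17 and 1.03 FPKM also lay below control, at −0.21 with an interval from −0.53 to 0.10 (adjusted p = 0.690). The share of all tested genes without overlap in this comparison was not counted, so no decrease is read from the separation of these genes.

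The interaction asks whether the AOS difference was the same with and without STZ. It was called for 2 of the 9 genes, Pecam1 (−0.67 ± 0.19, SE; adjusted p = 0.0146) and Esam (−0.62 ± 0.21; adjusted p = 0.0301), and for 35.2% of all tested genes. A further 4 genes, Cdh5, Kdr, Eng and Emcn, had an unadjusted p under 0.05 and values from −0.47 to −0.60 that did not pass after adjustment. Without STZ replicate 1 the count was 6, and without any other single library it was 1 to 3, so this count rests on single libraries. It was 3 with a block for the replicate number. It was 0 after quantile normalization or median centring.

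By group mean the STZ group came first for all 10 genes. The groups below it overlapped with their neighbours for 9 of the 10 genes. In Kdr alone, neighbours further down the order were apart: STZ+AOS (1.16 to 1.23 FPKM) above STZ+AOS-FMT (1.09 to 1.14 FPKM), and that group above AOS (0.91 to 0.99 FPKM). Between STZ+AOS and STZ+AOS-FMT the fitted Kdr difference was 0.06 (limma adjusted p = 0.971). The share of all tested genes apart in these comparisons was not counted, so no difference is read from the separation. Last place was taken by AOS for 7 genes: Pecam1, Kdr, Flt1, Tek, Vwf, Eng and Esam.

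To see whether the genes vary together within groups, each library's deviation from its group mean was correlated between genes over the 18 libraries, as a description without a test. Libraries of a group share its mean, and 3 of the 18 are the spread-out STZ libraries. Cdh5 and Kdr had r = 0.82 over 18 libraries and −0.05 over the 15 outside the STZ group, so their likeness rests on the STZ libraries. Kdr and Eng had 0.80 and 0.34. Cdh5 and Emcn kept 0.58 of 0.70, Pecam1 and Emcn 0.58 of 0.63, and Flt1 and Vwf 0.55 beside 0.48. They were the highest pairs outside the STZ group, where Eng and Esam had −0.59 and Cdh5 and Eng −0.33. Over 18 libraries the median r with the other endothelial genes was 0.26 for Kdr and 0.21 for Eng, beside 0.26 and 0.19 with all genes. For Pecam1 and Emcn it was 0.36 and 0.39, beside 0.11 and 0.19. The highest r of Tek with another of the 9 genes was 0.20 (Eng), over 18 libraries.

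No endothelial gene was among the 2 closest to another in this measure, out of 14163 other genes. The closest were Kifc2 (0.90) and S100a1 (0.89) for Pecam1, Rock2 (0.96) and Reep3 (0.95) for Cdh5, and Maged2 (0.96) and Stat3 (0.96) for Kdr. For Eng they were Mis18a (0.89) and Fbxo22 (0.89), and for Emcn Frzb (0.91) and Rabl6 (0.89). For Vwf they were Iqce (0.84) and Sdk2 (0.84), for Flt1 Snapc4 (0.89) and 1700129C05Rik (0.86), and for Tek Dscc1 (0.84) and 4932411N23Rik (0.83). The nearest endothelial gene ranked between 165 (Kdr, seen from Eng) and 2588 (Eng, seen from Tek).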

How the data were processed

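RNA was sequenced from 18 testis samples, 3 in each of 6 groups, and groups were taken from the treatment labels. The authors deposited 1 table whose header names no unit. Its values were taken as FPKM, as deposited, from a property of some low genes. In 179 of 2062 low genes all values fell on whole multiples of a step, within 0.15. Among these 179 the step shrank with transcript length (Spearman −0.45). The other low genes examined did not meet this, so the unit is inferred. RPKM would look the same. The submitters' processing notes name Bowtie 0.12.2 and mm10, with no role; for the counter and the annotation no name is given in the sources used here. Depth is therefore unknown, and no counting interval or floor was computed. Library sums ran from 561038 to 622169 FPKM. Replicates correlated at 0.987 to 0.996 (Pearson, log2 values) and shared at most 2.84% identical values.

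Tests used limma 3.58.1 in R 4.3.3: limma-trend on log2(FPKM + 1), which understates changes of low genes, for 14164 genes with at least 1 FPKM in at least 3 libraries. All 18 libraries entered 1 model, p-values were two-sided (F test apart) and adjusted by Benjamini-Hochberg over all tested genes, and the threshold was 0.05. Each gene thus had 1 estimate of spread for all groups, though STZ libraries were more spread than the others in genes such as Kdr and Cdh5. The fit was also run on simulated data in which each gene had the same spread in every group. The STZ libraries here were more spread, so that run does not show how the fit behaves for them. Tie1 was read from a fit without the filter, an alternative chosen after seeing the data, as were the correlation without STZ libraries and the scalings of Tie1 and the companion lists. The genes and lists were chosen with earlier results of these data known. Named genes are the 10 endothelial genes, up to 6 tested genes per list with the smallest p in STZ against control, and the 2 genes with the most similar deviations per endothelial gene; those of Esam are not reported here. Angpt1, Ppbp, the genes passing the filter only through STZ libraries, and the companion genes that change sign under a scaling were named outside this rule, after their values were seen. Positions are from GENCODE M21 and upstream windows from RefSeq GRCm38.p6. Alternatives were a pseudocount of 0.1, no filter, a filter at 9 libraries, quantile normalization, median centring, a replicate block, only the 2 groups compared, and leaving out each library. Same-numbered libraries did not deviate together (r from −0.21 to 0.20), so numbers were not taken as pairs.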

Additional observations from a re-analysis of the deposited data

Results flagged for a closer look

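The interaction of AOS and STZ was called for 2 of the 9 tested endothelial genes, against 35.2% of all tested genes. In Pecam1 the AOS difference with STZ minus that without STZ was −0.67 on the log2(FPKM + 1) scale (limma adjusted p = 0.0146): STZ+AOS minus STZ was −0.80 and AOS minus control was −0.13. In Esam it was −0.62 (adjusted p = 0.0301), from −0.84 and −0.21. Neither gene was called after quantile normalization or median centring. With STZ+control-FMT, whose label names no AOS, Pecam1 and Esam were also lower than in STZ, by 0.66 and 0.80.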

How the results depend on the processing

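The number of endothelial genes called fell with the scaling of the libraries and with only the 2 groups fitted. For STZ against control it went from 7 to 1 after quantile normalization, 4 after median centring and 4 with only the 2 groups fitted, where Cdh5, Kdr and Vwf lost the call. For STZ+AOS against STZ it went from 7 to 4, 4 and 4, and for STZ+AOS-FMT against STZ from 8 to 3, 3 and 5, in the same order. The interaction count went from 2 to 0 under both scalings, and the count for any difference among the 6 groups from 6 to 2 after quantile normalization. The STZ+control-FMT count of 6 became 4 under both scalings, without the filter, with only the 2 groups fitted, without STZ replicate 2 and without STZ+control-FMT replicate 1. Under quantile normalization and median centring 3 of the 9 genes changed sign, none of them past the threshold; Tie1, read without the filter, changed sign after median centring and was called higher in STZ+control-FMT against STZ (0.23). Against control in STZ, Flt1 had −0.10 and −0.13, Tek −0.069 and −0.13, and Vwf −0.10 and −0.051. For STZ+AOS against STZ, Flt1 had 0.19 and 0.19, Tek 0.056 and 0.093, and Vwf 0.12 and 0.053. For STZ+AOS-FMT, Flt1 had 0.20 and 0.23, Tek 0.029 and 0.087, and Vwf 0.12 and 0.068. For STZ+control-FMT, Flt1 had 0.11 and 0.16, Tek 0.013 and 0.10, and Vwf 0.069 and 0.041. The cause was not tested.

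Leaving out 1 library gave counts of 5 to 7 for STZ against control, 5 to 7, 6 to 7 and 4 to 6 for the 3 treated groups against STZ in the same order, 4 to 6 for the F test, and 1 to 6 for the interaction, with 6 without STZ replicate 1 and 3 without STZ+AOS replicate 2. The 7 comparisons with 0 genes called kept 0 under every alternative run. With the replicate block the counts were 7, 7, 8 and 6. In STZ+control-FMT against STZ the block replaced Vwf by Emcn among the 6 and changed no other call in these 4 comparisons, and the interaction count went from 2 to 3. The numbers share no known source (same-number r from −0.21 to 0.20). The levels were low, depth is unknown, and 3 libraries a group, 1 of them apart in STZ, limit all intervals.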
